A study of Mus musculus with 6 samples.

Results

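The genes described here are 52 mouse genes of glycolysis, of the hypoxia-inducible factor (HIF) pathway and of the hypoxia response, taken as a list of named genes that was drawn up with earlier results of these data known. Under these symbols 51 are in the deposited table of 15016 genes. The other one, Ero1l, is listed as Ero1a and is described apart. The libraries came from wild-type organoids, 3-dimensional cultures grown from mouse cochlear progenitor cells of the inner ear, with 3 libraries from stiff and 3 from soft GelMA-HA-RGD hydrogels. All organoids were first expanded with EGF, bFGF, IGF, CHIR99021, valproic acid, 2-phospho-L-ascorbic acid and 616452. For differentiation they were placed in stiff or soft gels, in medium with CHIR99021 (which inhibits the kinase GSK3) and LY411575 (which inhibits gamma-secretase). So both groups share every agent, and gel stiffness is the only labelled difference. Mouse strain, age, gel stiffness values, time in the gels and oxygen level are not stated in the labels.

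Glycolysis splits glucose to pyruvate in the cytosol, and lactate dehydrogenase turns pyruvate to lactate, which monocarboxylate transporters carry out of the cell. The HIF pathway ties these steps to oxygen: in oxygenated cells prolyl hydroxylases mark the HIF alpha subunits, the VHL protein binds the marked form, and it is degraded. With little oxygen the alpha subunit stays, pairs with ARNT and binds short DNA elements with the core ACGTG or GCGTG near genes for glucose uptake, glycolysis, pH control, collagen hydroxylation and mitochondrial clearance. Much of this control acts on HIF alpha protein, which RNA-seq does not measure.

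Depth over the listed genes was 16108470 to 17899391 reads per library, rebuilt from the deposited values. Levels are FPKM, reads scaled by gene length and library depth. The labels number the libraries 1 to 3 in each gel without saying whether each came from its own culture or animal. The p-values below thus reflect only how far the libraries spread, which may be technical. Of 12 epithelial and prosensory markers all were listed, with a summed level of 621 to 718 FPKM in stiff gels and 479.8 to 586 FPKM in soft gels, and Epcam was at 268 FPKM in stiff gels and 229 FPKM in soft gels. Pax2, one of these markers, was near 0 in both groups, at 0.0991 FPKM in stiff gels and 0.0418 FPKM in soft gels. In bulk RNA, fewer cells of a type and less RNA per cell cannot be told apart.

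Among the 52 listed genes 5 fell and 1 rose in stiff gels, and many more had lower values there without passing the test. In 29 of the 51 members every stiff library was below every soft library, against 10.3% of all listed genes. The reverse, every stiff library above every soft one, was seen in 2 members, Mxi1 and Egln2, against 14.5% of all listed genes. The test was limma on log2(FPKM + 1), with Benjamini-Hochberg adjustment over the 11780 genes that had a mean of at least 1 FPKM in either group, and a gene was called at an adjusted p under 0.05. It was run on 48 members and found 5 lower in stiff gels (2.68% of all tested genes were called lower) and 1 higher (3.13% were called higher). The genes that fell were Gapdh, Egln3, Fam162a, Ddit4 and Gbe1, and the one that rose was Mxi1. Among these 48, 29 had separate groups in the lower direction (10.4% of all tested genes did) and 40 had a log2 fold change below 0 (41.2% of all tested genes did). Their median log2 fold change, stiff minus soft, was -0.42, and that of all tested genes was 0.03. Eno2, Slc2a3 and Adm reached the minimum in soft gels only. Among the 45 members at the minimum in both groups the median was -0.39, and 28 had stiff libraries all below the soft ones, against 9.98% of such genes. Of the 48, 30 were lower and 2 higher at an unadjusted p under 0.05, against 9.04% and 12.7% of all tested genes. By the authors' deposited table, 15 of the 48 were lower and 1 higher at q under 0.05, against 5.37% and 4.09% of the same tested genes. Eno2 and Adm are among these 15, and Adm is among the 30. Eno2, Slc2a3 and Adm are among the 40 with a log2 fold change below 0. They entered through soft gels only, so the direction of their means follows from the filter. The number of members called lower was 1 without stiff replicate 1, 17 without stiff replicate 2, 1 without stiff replicate 3, 18 without soft replicate 1, 1 without soft replicate 2 and 2 without soft replicate 3. In the same order 47, 216, 54, 767, 15 and 86 of all tested genes were called lower, beside 316 with all libraries. The number of members called higher was 0 without stiff replicate 3 or soft replicate 2 and 2 without soft replicate 1. Of all tested genes 90, 50 and 860 were called higher in these fits, beside 369 with all libraries. Without stiff replicate 3 and soft replicate 2 together, a fit chosen after these libraries were seen to stand apart, 0 members were called (limma), and of all tested genes 1 was called lower and 5 higher.

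**Figure D1:**
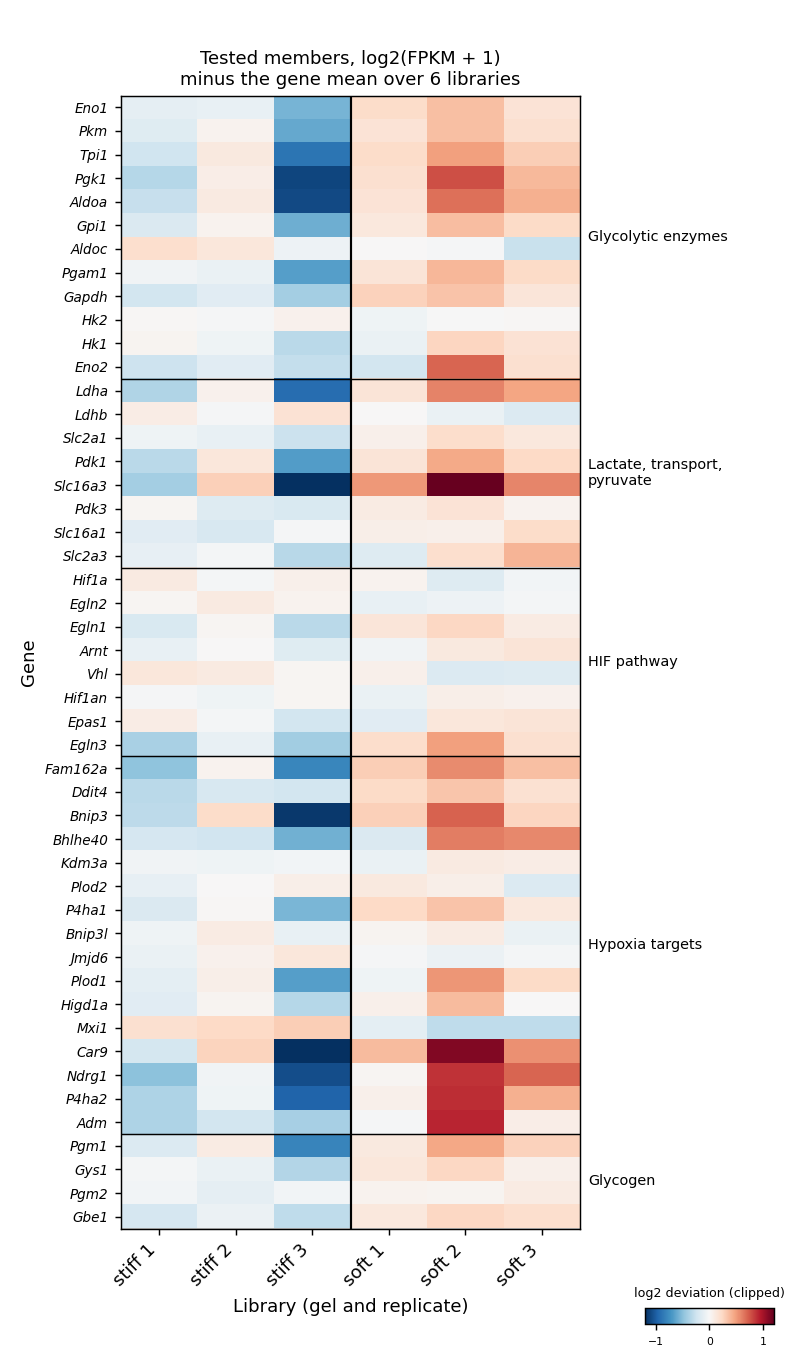
Each row is 1 of the 48 tested members and each column 1 library, stiff gels at the left; colour is log2(FPKM + 1) minus the mean of that gene over the 6 libraries, red above and blue below. Most rows are blue in stiff replicate 3 and red in soft replicate 2, while the HIF pathway rows are pale except for Egln3 and, less so, Egln1.

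The promoters of the members were read for the HIF core, since it is the DNA element through which the pathway acts. RefSeq gives a promoter window (assembly GRCm38.p6) for 45 of the 51 members, and the 250 bases before the first transcript start it lists for each gene were searched for ACGTG on both strands. In 30 of the 45 that start is the outer end of the RefSeq gene, and in 15 it lies inside the gene. It was present in 23 of 45 members (51.1%) and in 2093 of the 9427 tested genes with a window (22.2%). The other core, GCGTG, was present in 24 members (53.3%) and in 47.1% of the tested genes. By role, ACGTG was in 3 of 12 glycolytic enzymes, 5 of 7 lactate, transport and pyruvate genes, 4 of 7 HIF pathway genes, 8 of 14 hypoxia targets and 3 of 5 glycogen genes. A match is a run of letters and not a measured binding site. Many members were listed as genes of the HIF pathway or the hypoxia response, so these shares do not test HIF activity in the organoids. The 6 windows below hold ACGTG before a listed start of 3 members that fell (Egln3, Ddit4 and Fam162a) and 3 members of glycolysis and lactate handling that were not called (Pgk1, Ldha and Slc16a3), written 5′ to 3′ on the strand of the gene with ACGTG or its reverse complement CACGT in capitals. For Ldha and Slc16a3 the listed start is 3530 and 583 bases inside the RefSeq gene, so these 2 windows lie within the gene, and the other 4 windows abut it. In the order printed, the windows lie at chr12:54203875-54204124, minus strand (Egln3), chr10:59951771-59952020, minus strand (Ddit4), chr16:36071562-36071811, minus strand (Fam162a), chrX:106186850-106187099, plus strand (Pgk1), chr7:46845554-46845803, plus strand (Ldha) and chr11:120948817-120949066, plus strand (Slc16a3).
Egln3: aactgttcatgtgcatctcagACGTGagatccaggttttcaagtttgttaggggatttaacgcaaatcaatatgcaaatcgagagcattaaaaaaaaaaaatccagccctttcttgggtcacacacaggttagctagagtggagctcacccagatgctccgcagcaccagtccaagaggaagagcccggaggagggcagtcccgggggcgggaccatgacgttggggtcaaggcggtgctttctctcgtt
Ddit4: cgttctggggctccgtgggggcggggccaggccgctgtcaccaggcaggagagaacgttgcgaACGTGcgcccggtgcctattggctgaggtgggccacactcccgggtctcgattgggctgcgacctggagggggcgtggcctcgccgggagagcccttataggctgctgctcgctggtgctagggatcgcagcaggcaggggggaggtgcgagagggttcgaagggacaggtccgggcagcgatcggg
Fam162a: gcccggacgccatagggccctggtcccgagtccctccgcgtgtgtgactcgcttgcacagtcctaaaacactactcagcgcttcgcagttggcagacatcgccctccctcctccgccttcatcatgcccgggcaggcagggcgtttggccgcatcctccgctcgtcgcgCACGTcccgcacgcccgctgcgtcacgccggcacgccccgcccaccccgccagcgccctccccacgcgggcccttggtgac
Pgk1: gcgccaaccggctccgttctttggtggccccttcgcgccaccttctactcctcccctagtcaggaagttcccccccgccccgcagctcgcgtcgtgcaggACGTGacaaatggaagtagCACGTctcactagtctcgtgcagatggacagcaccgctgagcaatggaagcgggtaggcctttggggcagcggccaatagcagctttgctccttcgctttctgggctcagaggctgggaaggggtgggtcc
Ldha: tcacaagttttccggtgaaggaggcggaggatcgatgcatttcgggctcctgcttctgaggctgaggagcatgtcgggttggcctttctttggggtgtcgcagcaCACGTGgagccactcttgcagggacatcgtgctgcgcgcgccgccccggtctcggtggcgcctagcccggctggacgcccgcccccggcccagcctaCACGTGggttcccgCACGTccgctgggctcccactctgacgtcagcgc
Slc16a3: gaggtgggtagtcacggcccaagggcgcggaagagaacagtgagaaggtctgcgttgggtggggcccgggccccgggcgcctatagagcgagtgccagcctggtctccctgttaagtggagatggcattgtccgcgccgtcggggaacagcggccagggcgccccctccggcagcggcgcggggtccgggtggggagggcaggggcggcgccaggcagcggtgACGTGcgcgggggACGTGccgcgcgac
The Ldha window holds 5 matches counted on both strands, since CACGTG reads as ACGTG on either one, and the nearest begins 34 bases before that internal start. In Slc16a3 the nearest of 2 begins 14 bases before its internal start. Egln3 and Ddit4 hold 1 match each, 229 and 187 bases before the start, and Fam162a holds 1 at 81 bases. Pgk1 holds a pair, the nearer of them 131 bases before the start. Gapdh, whose listed start is 694 bases inside the gene, has GCGTG but no ACGTG in its window. Neither core was found in the windows of Gbe1 and of Mxi1, the member that rose, whose listed start is 378 bases inside the gene.

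Among the 12 glycolytic enzymes 1 fell, 0 rose and 8 had stiff libraries all below the soft ones (median log2 fold change -0.49). Of all tested genes 2.68% were called lower, 3.13% were called higher and 10.4% had stiff libraries all below the soft ones. Gapdh, which oxidises glyceraldehyde 3-phosphate and whose RNA is widely used as a loading control, was at 65.95, 70.1 and 57.8 FPKM in stiff gels, against 93.2, 97.7 and 84.99 FPKM in soft gels. All 3 stiff values were below all 3 soft values. Its mean was 64.6 ± 6.25 FPKM in stiff gels and 91.96 ± 6.44 FPKM in soft gels (SD, n = 3 each; log2 fold change -0.50 ± 0.085 SE, limma adjusted p = 0.0147; chromosome 6, 125161852 to 125166467). That call was lost without stiff replicate 1, stiff replicate 3 or soft replicate 2 (limma adjusted p up to 0.0694). Gapdh has many processed pseudogenes, and how the authors counted reads that match several places is not stated, so its level per length is uncertain.

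Enolase 1, the enzyme that forms phosphoenolpyruvate, was the most abundant member. Eno1 was at 877, 887 and 643 FPKM in stiff gels, against 1102, 1213 and 1062 FPKM in soft gels. The groups did not overlap, but the call was missed (log2 fold change -0.50 ± 0.13 SE, limma adjusted p = 0.054, 95% interval -0.79 to -0.21); in the authors' deposited table Eno1 was lower (q = 0.000235). Its retrotransposed copy Eno1b, listed apart and able to share reads with it, had 9.48, 8.91 and 8.19 FPKM in stiff gels, against 12.05, 15.99 and 13.6 FPKM in soft gels, and was called lower (log2 fold change -0.59 ± 0.10 SE, limma adjusted p = 0.0155; up to 0.0641 without stiff replicate 1, stiff replicate 3 or soft replicate 2). Phosphoglycerate kinase 1, the first enzyme of the pathway to make ATP, was chosen here after its values were seen. Pgk1 had 329, 442 and 194 FPKM in stiff gels, against 479, 717 and 549 FPKM in soft gels. Stiff replicate 3 was the lowest and soft replicate 2 the highest of the 6, and the spread within each gel was wide (log2 fold change -0.91 ± 0.26 SE, limma adjusted p = 0.0816). Aldoa (aldolase A), Tpi1 (triosephosphate isomerase), Gpi1 (glucose phosphate isomerase), Pgam1 (phosphoglycerate mutase) and Pkm (pyruvate kinase) also had groups that did not overlap. The log2 fold changes of these 5 were -0.83, -0.67, -0.48, -0.52 and -0.48, none of them called (limma adjusted p from 0.0816 to 0.1). In the authors' deposited table Gapdh, Gpi1, Pgam1, Eno1, Eno2 and Pkm were lower at q under 0.05, 6 of the 12, and Aldoa, Tpi1 and Pgk1 were not (q from 0.15 to 0.197).

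The hexokinases, which start the pathway by phosphorylating glucose, and the brain-type aldolase were not separated between the gels. Hk2 was at 22.4 ± 0.577 FPKM in stiff gels and 21.9 ± 0.523 FPKM in soft gels (SD, n = 3 each), with a log2 fold change of 0.032 and a 95% interval of -0.10 to 0.16. Hk1 was at 19.4 FPKM in stiff gels and 22.97 FPKM in soft gels, with an interval of -0.49 to 0.021. Aldoc had 145, 138 and 121 FPKM in stiff gels, against 126, 125 and 105 FPKM in soft gels, and its groups overlapped (limma adjusted p = 0.313). The neuronal enolase Eno2 was low, at 0.669, 0.801 and 0.626 FPKM in stiff gels, against 0.706, 2.22 and 1.26 FPKM in soft gels. Soft replicates 2 and 3 were above all stiff libraries and soft replicate 1 was among them.

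**Figure D2:**
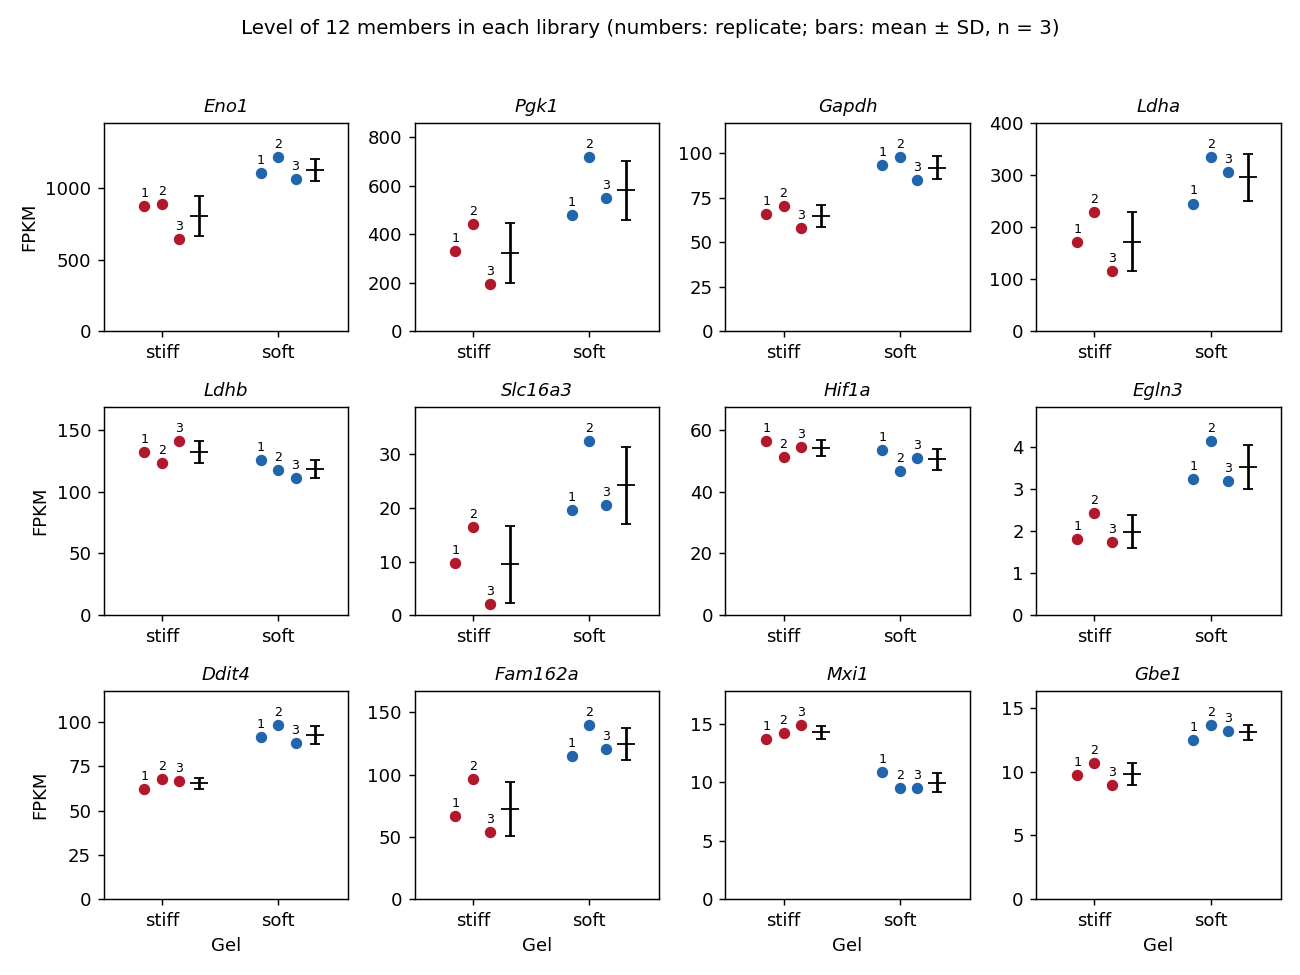
FPKM of 12 members in each library, stiff gels at the left (red) and soft gels at the right (blue), numbered by replicate, with the mean and SD of 3 libraries beside them; every axis starts at 0. Stiff libraries lie below soft ones for Eno1, Pgk1, Gapdh, Ldha, Slc16a3, Egln3, Ddit4, Fam162a and Gbe1, above them for Mxi1, and among them for Ldhb and Hif1a.

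Of the 8 genes of lactate formation, sugar and lactate transport and the pyruvate switch, 0 passed the test (median log2 fold change -0.29). In 6 the stiff libraries were all below the soft ones, against 10.4% of all tested genes. The unadjusted p was under 0.05 for 6 lower and 0 higher, against 9.04% and 12.7% of all tested genes. Only Slc2a1 was lower at q under 0.05 in the authors' deposited table. Lactate dehydrogenase A, the form that favours lactate production, was the most abundant of them. Ldha had 171, 229 and 117 FPKM in stiff gels, against 245, 334 and 307 FPKM in soft gels. The highest stiff value was just under the lowest soft value (log2 fold change -0.82 ± 0.21 SE, limma adjusted p = 0.0613). Ldhb, the partner subunit, went the other way in its mean, with 132, 123 and 141 FPKM in stiff gels, against 125, 118 and 111 FPKM in soft gels, and its groups overlapped (95% interval -0.0057 to 0.33). The main basal glucose transporter, Slc2a1 (GLUT1), had 29.6, 28.9 and 25.5 FPKM in stiff gels, against 32.02, 35.8 and 33.8 FPKM in soft gels. Its spread was small and the groups were separate, yet the call was missed (log2 fold change -0.27 ± 0.075 SE, limma adjusted p = 0.0733). The lactate exporter Slc16a3 (MCT4), named after its values were seen, had 9.81, 16.4 and 2.11 FPKM in stiff gels, against 19.6, 32.4 and 20.6 FPKM in soft gels. Its stiff libraries differed 7.80-fold between replicates 2 and 3, and it was not called (log2 fold change -1.55 ± 0.52 SE, limma adjusted p = 0.12). A second lactate transporter, Slc16a1 (MCT1), had separate groups too, at 5.78 FPKM in stiff gels and 6.95 FPKM in soft gels (limma adjusted p = 0.131). Pdk1 and Pdk3 encode kinases that shut off pyruvate dehydrogenase. In both the groups were separate, with Pdk1 at 16.8 FPKM in stiff gels and 24.9 FPKM in soft gels (log2 fold change -0.57) and Pdk3 at 5.93 FPKM in stiff gels and 6.97 FPKM in soft gels (log2 fold change -0.20). Slc2a3 (GLUT3), at 0.745 FPKM in stiff gels and 1.17 FPKM in soft gels, had groups that overlapped.

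The HIF pathway itself held the median nearest 0 of the 5 role groups. Of its 8 genes 1 fell, 0 rose and 2 had stiff libraries all below the soft ones, with a median log2 fold change of -0.06. Of all tested genes 2.68% were called lower and 10.4% had stiff libraries all below the soft ones. Hif1a, the oxygen-regulated alpha subunit, had 56.2, 51.2 and 54.5 FPKM in stiff gels, against 53.6, 46.8 and 50.98 FPKM in soft gels. The groups overlapped, and the 95% interval of its log2 fold change was -0.061 to 0.25. Its partner Arnt was at 19.6 FPKM in stiff gels and 21.9 FPKM in soft gels, and the second alpha subunit Epas1 at 6.76 FPKM in stiff gels and 7.34 FPKM in soft gels (95% intervals -0.32 to 0.014 and -0.35 to 0.14). Egln3, a prolyl hydroxylase that is itself a HIF target, had 1.81, 2.44 and 1.74 FPKM in stiff gels, against 3.25, 4.14 and 3.198 FPKM in soft gels. The stiff values were all below the soft ones, with means of 1.995 ± 0.389 FPKM in stiff gels and 3.53 ± 0.532 FPKM in soft gels (SD, n = 3 each; log2 fold change -0.60 ± 0.12 SE, limma adjusted p = 0.0248; chromosome 12, 54178981 to 54203874). It lost its call without stiff replicate 1, stiff replicate 3, soft replicate 2 or soft replicate 3 (limma adjusted p up to 0.102). The related hydroxylase Egln1, also HIF-inducible, had separate groups, at 21.7 FPKM in stiff gels and 27.3 FPKM in soft gels, and was not called (limma adjusted p = 0.0733), while the authors' deposited table has it lower (q = 0.0118). The third, Egln2, had stiff libraries above the soft ones, at 29.1 FPKM in stiff gels and 26.8 FPKM in soft gels, and was not called (limma adjusted p = 0.292). Vhl was at 14.7 FPKM in stiff gels and 12.9 FPKM in soft gels (limma adjusted p = 0.227; called higher without soft replicate 1, limma adjusted p = 0.044), and the asparaginyl hydroxylase Hif1an was at 12.05 FPKM in stiff gels and 12.3 FPKM in soft gels.

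Of 19 other hypoxia targets 18 were listed and 16 tested, of which 2 fell and 1 rose (median log2 fold change -0.48). Of all tested genes 2.68% were called lower and 3.13% higher. In 9 of the 16 the stiff libraries were all below the soft ones, against 10.4% of all tested genes. Adm, 1 of these 9, had reached the minimum mean in soft gels only. Ddit4, which encodes REDD1, an inhibitor of mTORC1 that hypoxia and other stresses induce, had 62.2, 67.98 and 66.5 FPKM in stiff gels, against 91.5, 98.2 and 88.4 FPKM in soft gels. The replicates lay close together in each gel, and no other member had a lower adjusted p. Its means were 65.6 ± 3.01 FPKM in stiff gels and 92.7 ± 4.99 FPKM in soft gels (SD, n = 3 each; log2 fold change -0.49 ± 0.066 SE, limma adjusted p = 0.00918; chromosome 10, 59949675 to 59951770), and the call held with each library left out in turn (limma adjusted p up to 0.0486), though not without stiff replicate 3 and soft replicate 2 together (limma adjusted p = 0.145). Fam162a, which encodes a mitochondrial protein linked to hypoxic cell death, had 66.6, 96.1 and 53.96 FPKM in stiff gels, against 115, 139 and 120.3 FPKM in soft gels. It fell by 0.82 on the log2 scale (limma adjusted p = 0.033; chromosome 16, 36043844 to 36071561), with stiff replicate 2 nearest to the soft libraries, and the call was lost without stiff replicate 1, stiff replicate 3, soft replicate 2 or soft replicate 3 (limma adjusted p up to 0.13). Mxi1, a MAX-binding repressor that counters MYC and is induced by HIF in other cells, was the one member that rose. It had 13.7, 14.2 and 14.8 FPKM in stiff gels, against 10.9, 9.46 and 9.47 FPKM in soft gels. Every stiff value was above every soft value (log2 fold change 0.48 ± 0.073 SE, limma adjusted p = 0.0109; chromosome 19, 53310128 to 53373293), and the call was missed without stiff replicate 3 or soft replicate 2 (limma adjusted p up to 0.0589).

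The pH-regulating carbonic anhydrase Car9, a gene often used to mark hypoxic tissue, was named after its values were seen. It had 13.6, 19.2 and 2.93 FPKM in stiff gels, against 20.9, 35.4 and 23.6 FPKM in soft gels. Stiff replicate 3 was far below the other stiff libraries and the test was not passed (log2 fold change -1.36 ± 0.51 SE, limma adjusted p = 0.157). Bnip3 (mitophagy receptor), Ndrg1 (a hypoxia-inducible differentiation gene), P4ha1 and P4ha2 (collagen prolyl 4-hydroxylases) and Bhlhe40 (a circadian and hypoxia-inducible repressor) also had separate groups. Their log2 fold changes were -0.83, -1.07, -0.47, -0.92 and -0.68, with limma adjusted p from 0.0527 to 0.133. Among these genes the authors' deposited table has only P4ha1 lower at q under 0.05 (q = 0.00181). The peptide hormone gene Adm was near the limit of this depth, with 5, 8 and 4 reads in stiff gels and 13, 48 and 16 reads in soft gels. Its stiff counts were all below its soft counts, and the log2(FPKM + 1) scale understates such a low gene (log2 fold change -0.66, limma adjusted p = 0.121; -2.15 with q = 0.0149 in the authors' deposited table). Other targets showed no such separation. Plod2 (a collagen lysyl hydroxylase), Bnip3l (a mitophagy receptor), Kdm3a (a histone demethylase) and Jmjd6 (a dioxygenase) had log2 fold changes of -0.015, -0.032, -0.082 and 0.073, and their groups overlapped. Plod1 and Higd1a overlapped too, at log2 fold changes of -0.47 and -0.30. Ankrd37 (0.583 FPKM in stiff gels and 0.735 FPKM in soft gels) and Car12 (0.284 FPKM in stiff gels and 0.289 FPKM in soft gels) were too low to test. Ero1a, the endoplasmic reticulum oxidase listed under its newer symbol and not counted above, had 8.71, 8.39 and 7.94 FPKM in stiff gels, against 9.73, 11.8 and 9.64 FPKM in soft gels, with separate groups and no call (log2 fold change -0.28 ± 0.087 SE, limma adjusted p = 0.0949). Ero1a was lower in the authors' deposited table (q = 0.0341).

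**Figure D3:**
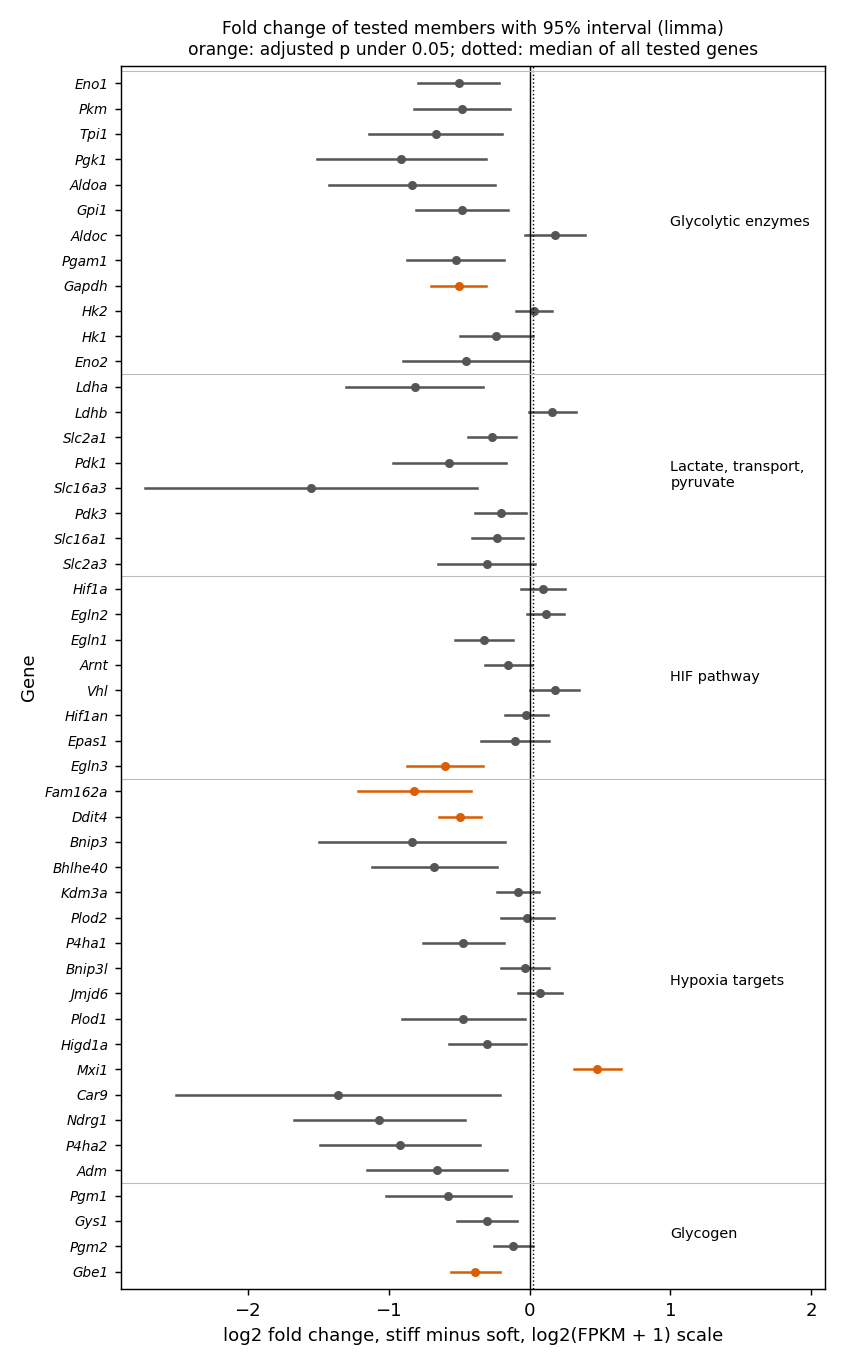
The log2 fold change of each of the 48 tested members (x axis, stiff minus soft, of log2(FPKM + 1)) with its 95% interval from limma, grouped by role. The 6 orange genes passed the test, and the widest intervals belong to Slc16a3 and Car9.

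Glycogen stores glucose, and HIF raises its synthesis in other cells. Genes of its turnover gave 1 fall among 4 tested members, against 2.68% of all tested genes. All 4 had stiff libraries below the soft ones, against 10.4% of all tested genes. Gbe1, the branching enzyme, had 9.72, 10.7 and 8.97 FPKM in stiff gels, against 12.5, 13.6 and 13.2 FPKM in soft gels. The groups were well apart for its small spread, with means of 9.798 ± 0.862 FPKM in stiff gels and 13.1 ± 0.591 FPKM in soft gels (SD, n = 3 each; log2 fold change -0.39 ± 0.077 SE, limma adjusted p = 0.0243; chromosome 16, 70313949 to 70569720); the call was lost without stiff replicate 1, stiff replicate 3, soft replicate 2 or soft replicate 3 (limma adjusted p up to 0.104). Phosphoglucomutase 1, which links glycogen to glycolysis, was the most abundant of them. Pgm1 had 31.4, 37.8 and 19.9 FPKM in stiff gels, against 38.5, 49.1 and 43.1 FPKM in soft gels. Only its highest stiff value, in replicate 2, came near the soft libraries (limma adjusted p = 0.126). Glycogen synthase Gys1 was at 17.7 FPKM in stiff gels and 21.96 FPKM in soft gels (limma adjusted p = 0.0977) and Pgm2 at 12.2 FPKM in stiff gels and 13.4 FPKM in soft gels (limma adjusted p = 0.318). The authors' deposited table has Gbe1 and Gys1 lower (q = 0.00241 and 0.0281), but not Pgm1 and Pgm2 (q = 0.248 and 0.531). Ppp1r3c, which targets a phosphatase to glycogen, was too low to test, at 0.2597 FPKM in stiff gels and 0.517 FPKM in soft gels.

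The libraries of one gel were not alike for these genes. Stiff replicate 3 was the lowest of all 6 libraries in 34 of 48 tested members, against 15.1% of all tested genes, and soft replicate 2 was the highest in 34, against 13.7%. Both held in 31 members, against 4.41% of all tested genes. These orders were noticed in the data and are a description. In 17 members (35.4%) the level in stiff replicate 2 was at least 1.5 times that in stiff replicate 3, which held for 2.12% of all tested genes. Averaged over the 12 glycolytic enzymes, the deviation of log2(FPKM + 1) from each gene's mean was -0.13, -0.00020 and -0.54 in stiff replicates 1 to 3 and 0.097, 0.39 and 0.18 in soft replicates 1 to 3. For the 16 tested hypoxia targets it was -0.20, 0.016 and -0.53 in the stiff libraries and 0.080, 0.45 and 0.19 in the soft ones. In these 2 role groups the highest stiff library thus lay just under the lowest soft library. Over the 8 HIF pathway genes the same means stayed between -0.12 and 0.084, and over all tested genes between -0.021 and 0.018. Stiff replicate 3 also had the fewest reads, 16108470, and FPKM are scaled for depth; the part of depth in this order was not tested. Together the 51 members took 1.15%, 1.31% and 0.873% of the reads in stiff replicates 1 to 3, against 1.42%, 1.71% and 1.51% in soft replicates 1 to 3.

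**Figure D4:**
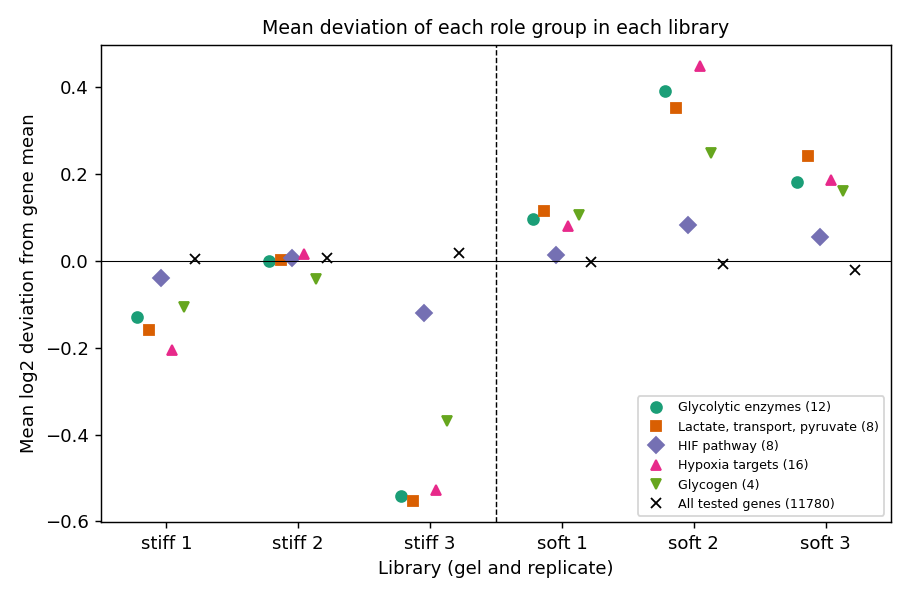
Mean over the genes of each role group (number of genes in the legend) of the deviation of log2(FPKM + 1) from the gene's mean over 6 libraries, for each library on the x axis, stiff gels at the left. Every role group is lowest in stiff replicate 3 and highest in soft replicate 2, the HIF pathway lies closest to 0 of the 5, and the crosses for all tested genes stay near 0.

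Ratios between related genes within a library do not depend on scaling between libraries. The ratio of Ldha to Ldhb, levels per length, was 1.29, 1.865 and 0.829 in stiff gels and 1.96, 2.84 and 2.77 in soft gels. So the RNA level of Ldha exceeded that of Ldhb in every library but stiff replicate 3. For Aldoa over Aldoc the ratio was 2.31, 3.16 and 1.59 in stiff gels and 3.605, 5.15 and 5.22 in soft gels. Bnip3 over Bnip3l stood at 1.86, 2.44 and 1.05 in stiff gels and at 2.69, 3.41 and 2.845 in soft gels. In these 3 pairs the stiff ratios were all below the soft ratios (exact two-sided permutation test on log2 ratios, p = 0.1, adjusted p = 0.233 over 7 pairs compared), and 0.1 is the smallest p that 3 against 3 libraries allow. The pairs Slc16a3 and Slc16a1, Pgm1 and Pgm2, Plod1 and Plod2, and Hk1 and Hk2 had ratios that overlapped between gels (exact permutation p from 0.2 to 0.3). The pairs were chosen after the values were seen.

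Further genes of the same pathways, outside the 52, were described from longer lists. Among all tested genes 2.68% were called lower in stiff gels and 3.13% higher. Of 24 tested genes of glycolysis and pyruvate use, 2 fell and 1 rose. Pdk4, a kinase of pyruvate dehydrogenase, was at 29.3 ± 1.204 FPKM in stiff gels and 43.9 ± 5.85 FPKM in soft gels (SD, n = 3 each; log2 fold change -0.56, limma adjusted p = 0.0147). The platelet-type phosphofructokinase Pfkp fell by 1.36 on the log2 scale (limma adjusted p = 0.0152). The muscle-type gene Pfkm rose (log2 fold change 0.30 ± 0.062 SE, limma adjusted p = 0.029). The median of that list was 0.050, beside 0.03 for all tested genes. Among 13 other HIF pathway genes 0 fell and 1 rose, the ubiquitin ligase gene Siah1a, at 5.43 FPKM in stiff gels and 4.099 FPKM in soft gels (limma adjusted p = 0.0316). Of 28 other hypoxia targets 4 fell and 0 rose, with a median log2 fold change of -0.13. The 3 with the lowest adjusted p were Igfbp3, an IGF binding protein, and the lysyl oxidases Lox and Loxl2, with log2 fold changes of -1.37, -1.97 and -1.82 (limma adjusted p = 0.0169, 0.018 and 0.0284). The fourth, Hmox1, a heme-degrading oxygenase named after its values were seen, had a log2 fold change of -0.60 (limma adjusted p = 0.0411). All the calls named in this comparison of further genes were lost without stiff replicate 1, stiff replicate 3, soft replicate 2 or soft replicate 3, and that of Pfkm also without stiff replicate 2 (highest limma adjusted p among the 8 genes 0.151). Among 11 other glycogen genes 0 were called (limma; 1 lower and 2 higher at an unadjusted p under 0.05).

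Markers of other cell types were read beside these results. Of 6 endothelial markers, Pecam1 was near 0, at 0.0531 FPKM in stiff gels and 0.0672 FPKM in soft gels, Cdh5 was at 0.977 FPKM in stiff gels and 1.24 FPKM in soft gels, and Kdr alone was called (log2 fold change -1.13 ± 0.16 SE, limma adjusted p = 0.0104; up to 0.0567 without stiff replicate 1 or soft replicate 2). Tek and Esam had higher means in stiff gels (5.37 and 0.538 FPKM) than in soft gels (4.90 and 0.384 FPKM). Of the 4 tested endothelial markers 3 had a log2 fold change below 0, and Tek had one above 0 (0.11). The summed level of the 6 markers was 341 to 426 FPKM in stiff gels and 391 to 458 FPKM in soft gels, most of it Emcn. Averaged over the 4 tested endothelial markers, the deviation of log2(FPKM + 1) was -0.16, -0.0013 and -0.35 in stiff replicates 1 to 3 and 0.032, 0.23 and 0.25 in soft replicates 1 to 3, so it too was lowest in stiff replicate 3. The mean over the 11 tested epithelial and prosensory markers went the other way, at 0.43, 0.19 and 0.24 in the stiff libraries and -0.061, -0.33 and -0.47 in the soft ones. Of the 11 tested, 5 were called higher in stiff gels (Sox2, Lgr5, Jag1, Tecta and Otog), against 3.13% of all tested genes, and 0 lower (limma; 1 lower at an unadjusted p under 0.05). Each of these 5 calls was lost without 1 or more of stiff replicate 1, stiff replicate 3, soft replicate 2 and soft replicate 3 (limma adjusted p up to 0.081).

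Summed mesenchyme markers lay at 730.3 to 757 FPKM in stiff gels and 569.6 to 707 FPKM in soft gels, with 0 of 6 tested called (limma; 1 lower and 2 higher at an unadjusted p under 0.05), and Col1a1 was near 0, at 0.117 FPKM in stiff gels and 0.184 FPKM in soft gels. Of 6 macrophage and leukocyte markers only Cd68 was read, at 5.62 FPKM in stiff gels and 4.98 FPKM in soft gels, and of 6 erythroid markers only Hba-a1, at 0.104 to 0.502 FPKM in stiff gels and 0 to 0.0999 FPKM in soft gels. The part of cell types in the values of the glycolysis and hypoxia genes was not tested.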

How the data were processed

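RNA from organoids in stiff gels (3 libraries) and soft gels (3 libraries) was made into TruSeq RNA v2 libraries, which do not mark strand, and sequenced on an Illumina HiSeq, per the labels' protocols. The authors aligned reads to mm10 with TopHat2 2.1.1 and used DESeq2, per the submitters' processing notes. No source used here names the read counter, its annotation or its treatment of reads that match several places. The deposited table lists 15016 genes, with 1 expression column per library. Their unit is taken as FPKM from the values, since the deposited header says only that they are expression. The authors also deposited a base mean (a normalized count signal), a log2 fold change, a linear fold change ratio, a score column each for its standard error and test statistic, and a p-value and q-value; only the log2 fold change and q-value are printed.

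Whole reads were rebuilt from the deposited FPKM and base mean, and 100.0% of values came out whole within 0.05 reads; they give the depths and 1 alternative test.

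The test was limma 3.58.1 in R 4.3.3 (eBayes with an intensity trend, two-sided) on log2(FPKM + 1), stiff minus soft, over 11780 genes with a mean of at least 1 FPKM in either group, Benjamini-Hochberg adjusted and called under 0.05. The scale understates fold changes of low genes. It was tested on simulated data. Replicate numbers were not used as pairs. Alternatives were no filter, a minimum of 5 FPKM, a pseudocount of 0.1, median-ratio scaling, no trend, limma-voom on the reads, a replicate block, and leaving out each library or, added later, stiff replicate 3 with soft replicate 2.

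The 52 members, the further gene lists and the marker lists were chosen with earlier results of these data known. The result of 1 marker list is not reported here. Values in every library are printed for each member called, for the most abundant member of each role group and for Hif1a, Egln3, Slc2a1 and Ldha; of the further lists at most 3 called genes a direction are named. Exceptions are named as such or, for Aldoc, Ldhb, Eno2, Eno1b, Ero1a and Hmox1, were added after their values were seen. Promoters are RefSeq windows at the first listed transcript start on GRCm38.p6, the assembly that mm10 names, and gene coordinates are from RefSeq.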

Additional observations from a re-analysis of the deposited data

How the results depend on the processing

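Over all tested genes, leaving out 1 library at a time gave 50 to 860 genes called higher and 15 to 767 called lower in stiff gels (limma, Benjamini-Hochberg), beside 369 and 316 with all libraries; among members it gave 0 to 2 higher and 1 to 18 lower, beside 1 and 5. Leaving out stiff replicate 3 together with soft replicate 2, chosen after seeing the data, gave 5 genes higher and 1 lower, 0 members called in either direction and a median log2 fold change of -0.25 for the glycolytic enzymes (-0.60 to -0.34 with 1 library left out), and it turned Epas1 (0.024) and Bnip3l (0.049), which were not called, to above 0. Members with stiff libraries all above soft libraries numbered 2 to 5 with 1 library left out and 4 with this pair left out. Of all listed genes 17.3% to 25.4% and 23.9% were so placed, beside 14.5% with all libraries. Members with stiff libraries all below numbered 29 to 38 and 30. The shares of all listed genes were 13.2% to 17.3% and 18.6%, beside 10.3% with all libraries. Leaving out libraries cannot lower these counts or shares. With limma-voom on the rebuilt reads 11 members were called lower, among 487 genes called higher and 435 called lower. Fam162a missed the threshold with no filter on low values (limma adjusted p = 0.0618), and Egln3 was not tested at a minimum of 5 FPKM. Uncalled log2 fold changes near 0 could change sign with 1 library left out, from -0.073 to 0.0036 for Hif1an, from -0.090 to 0.0111 for Bnip3l and from -0.10 to 0.0384 for Plod2, while Epas1 ran from -0.20 to -0.017. The cause of these shifts was not tested.

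The replicate number as a block gave 20 members called lower, among 329 genes called lower and 381 called higher (limma). Whether the numbers pair the libraries is not stated in the labels, and 3 libraries per gel are too few to decide it. Deviations from the group means of same-numbered libraries correlated at 0.0087, 0.22 and -0.21 over genes. Of the 6 libraries 1, soft replicate 2, correlated best with its own number in the other gel.

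Other settings kept the counts over all genes and the medians of glycolytic enzymes and hypoxia targets within the limits used here. Depth limits Adm, Ankrd37, Car12 and Ppp1r3c, each with 48 reads or fewer per library.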

Other observations

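The pathway column of the deposited table gives a wider set of genes of both processes. Of 35 genes it places in glycolysis and gluconeogenesis that are not among the 52, 26 were tested, with a median log2 fold change of 0.086. In stiff gels 2 were called lower (2.68% of all tested genes were) and 3 higher (3.13% were) by limma. Of 80 further genes it places in HIF-1 signaling, 65 were tested, 5 were called lower and 1 higher, and the median was -0.017, beside 0.027 for all tested genes. These sets hold alcohol and aldehyde dehydrogenases and growth factor signaling genes beside the core enzymes, and they share members with the further lists described above.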
